A study of Drosophila melanogaster with 6 samples.

Results

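Oviducts of the fruit fly, Drosophila melanogaster, were measured on 6 Affymetrix arrays, and 30 of 13966 probe sets outside the array controls stood high on unmated arrays 1 and 2 and low on the other 4 arrays. They were chosen by their values: an intensity of at least 150 on both unmated arrays 1 and 2, with both at least 3 times the value on each of the 3 mated arrays and on unmated array 3. In all 33 probe sets met these values, and 3 of them, for the chorion genes Cp16, Cp38 and Cp19, were left out by name together with any yolk protein or vitelline membrane gene. The 30 probe sets are 0.215% of all probe sets. Of them 28 carry 1 gene in the platform annotation, 1 carries 2 genes and 1 is not listed there. The last 2 are given without a gene name.

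The mated group held 3 arrays of oviducts from females dissected 3 h after mating ended. The unmated group held 3 arrays of oviducts from females that had not mated and were dissected at parallel times. All females were 3 days old, were kept under 1 light and temperature regime, and carried no genotype or strain in the labels. Tracts of 400 to 500 females were pooled, and the labels do not say whether each array had a pool of its own. The arrays of a group are called biological repeats there, so each was counted as 1 replicate.

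The oviduct carries eggs from the ovary to the uterus and consists of an epithelium, muscle and nerve endings. Oocytes hold RNAs that the nurse cells make and load into them, among them RNAs that set the body axes, mark the germ cells and steer the first divisions of the embryo. Trypsins, Jonah proteases and maltases are digestive enzymes that the epithelium of the midgut makes. In RNA from a whole dissected tissue, fewer cells of a type and less RNA per cell cannot be told apart.

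Unmated arrays 1 and 2 also stood apart from the other 4 arrays in median intensity and in control probe sets. By correlation across probe sets the split was less clear. Unmated array 1 was at 0.930 with unmated array 2 and at 0.923 with mated array 2. Unmated array 2 was at 0.915 with mated array 3, and mated arrays 1 and 2 were at 0.886 with each other. The median intensity was 60.6 to 66.5 on the mated arrays, against 86.2, 86 and 62.4 on unmated arrays 1, 2 and 3. The mean of the 18S ribosomal RNA control probe sets was 169, 464 and 420.0 on the mated arrays, against 1005, 806 and 223.5 on the unmated arrays. The mean of the bacterial and phage spike-in control probe sets (bio and cre) was 1772, 2207 and 1909 on the mated arrays, against 1363, 1162 and 2160.5 on the unmated arrays. The part of these differences in the results that follow was not tested. As a check of the tissue, 8 of the 9 genes listed as oviduct markers were measured, and 0 of them was among the 30. The zona pellucida domain gene pio had an intensity of 6749.8, 7415 and 8445 on the mated arrays, against 5581, 6505 and 5205 on the unmated ones. The gene cher was also bright, and Octbeta2R and cv-c lay above the array medians on all arrays. Mmp2, Octbeta1R, zye and vvl were much lower, with Mmp2 at 22.9 to 75.5 and Octbeta1R at 36 to 88.1 over the 6 arrays. These 8 genes did not move one way: the log2 difference, mated minus unmated over 6 arrays, ran from -1.35 in zye to 1.36 in Mmp2, and 0 passed an adjusted p of 0.05 in limma.

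The probe sets were not confined to unmated arrays 1 and 2. On the other 4 arrays, 5 of the 30 lay above the array's median on every one: dhd, Jabba, Pen, Jon74E and CG14545. Another 12 lay below the median on all 4 arrays, and 0 lay under 14.2, the lowest lower quartile of any array, on all 4. Values under 14.2 are dim, and 19 of the 120 values on these 4 arrays were below it, in 8 probe sets. A ratio that rests on such a value is not exact. The deposited arrays differ in median, and after median centring or cyclic loess only 15 of the 30 met the rule, among them 3 and 4 of the digestion and gut genes and 3 and 6 of the oocyte and embryo genes described next. The ratio of the lower of unmated arrays 1 and 2 to the highest of the other 4 ran from 3.01 to 24.6 with a median of 4.55, and 10 of the 30 reached a ratio of 5.

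**Figure D1:**
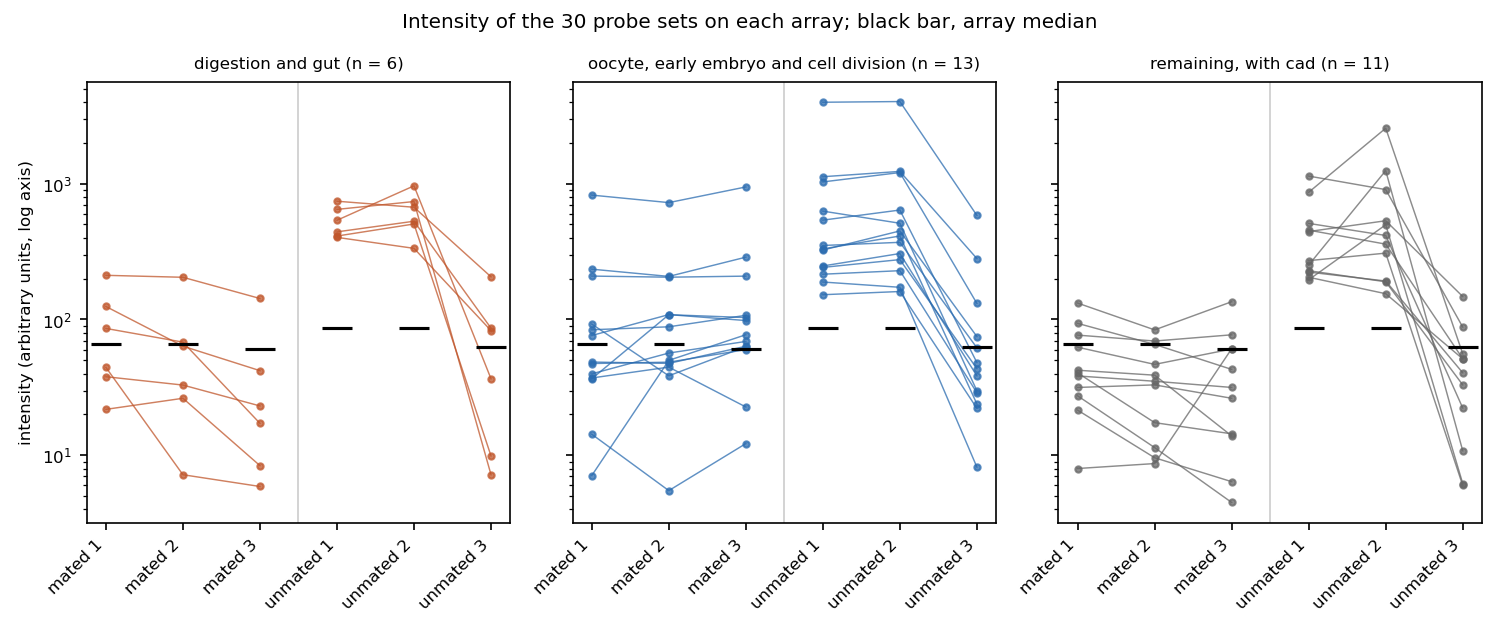
Intensity (arbitrary units, log axis) of the 30 probe sets on the 3 mated and 3 unmated arrays, in panels by the known role of the gene. Each line joins the values of 1 probe set within a group, and black bars give the median of the array; all points of unmated arrays 1 and 2 lie at 152 or higher, and those of the other 4 arrays spread from 4.5 to 944.5.

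By gene identity, 2 kinds of genes made up most of the named ones. The sorting was done after the names were known. It gave 6 genes of digestion and gut, 13 genes of oocyte, early embryo and cell division, the gene cad, which belongs to both, and 10 probe sets that were not sorted. These 10 may still include genes of either kind, so the counts of 6 and 13 are not shares of tissues. The values of arrays that chose the probe sets are a description, and no test is attached to them.

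The 6 digestion and gut genes included the 2 highest ratios of the 30. The trypsin gene alphaTry had the highest ratio of the 30, 24.6, with an intensity of 21.8, 26.3 and 8.4 on mated arrays 1, 2 and 3, against 646, 738 and 7.2 on unmated arrays 1, 2 and 3. The related trypsin gene betaTry had 37.9, 32.9 and 23.1 on mated arrays 1, 2 and 3, against 537, 963 and 36.6 on unmated arrays 1, 2 and 3, a ratio of 14.2. In alphaTry unmated array 3 lay below the mated arrays and in betaTry among them, and betaTry alone of the 2 stood clearly higher on unmated array 2 than on unmated array 1.

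Jonah proteases are serine proteases of the gut. Jon65Aiv had an intensity of 125, 63.6 and 42 on the mated arrays, against 441, 528 and 86.3 on the unmated ones. Jon74E had 211, 204 and 143 on the mated arrays, against 742, 669.7 and 206 on the unmated ones, so it kept a level above the array medians on the 4 low arrays. Mal-A1, a maltase that splits sugar into glucose, had 85.9, 68.1 and 17.2 on the mated arrays, against 402, 334 and 82.8 on the unmated ones. Ag5r, which encodes a secreted protein of the antigen 5 family, had 44.4, 7.2 and 5.9 on the mated arrays, against 411, 504 and 9.9 on the unmated ones; its value on mated array 1 was the highest of the 4 low arrays. In 5 of these 6 genes the lowest of all arrays was mated array 3, and in alphaTry it was unmated array 3. Over all probe sets mated array 3 was the lowest in 26%.

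The genes of oocyte, early embryo and cell division had smaller ratios, with 12 of the 13 below 5. BigH1, the linker histone of the germline and early embryo, was the exception, with a ratio of 12.1 and an intensity of 14.3, 5.5 and 12.2 on mated arrays 1, 2 and 3, against 189, 172.5 and 8.2 on unmated arrays 1, 2 and 3. The values of BigH1 on mated array 2 and mated array 3 and on unmated array 3 were below 14.2. The probe set of dhd, a thioredoxin of the female germline, had 823, 724.5 and 944.5 on mated arrays 1, 2 and 3, against 3969, 4016 and 583 on unmated arrays 1, 2 and 3, and so remained bright on every array.

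Several of these genes place RNA or protein in the egg. The probe set of swa, needed to hold bicoid RNA at the front of the oocyte, had an intensity of 39.8, 56.6 and 68.9 on the mated arrays, against 331, 411 and 23.9 on the unmated ones. That of exu, which also acts in bicoid RNA transport, had 92.5, 38.5 and 63.1 on the mated arrays, against 324, 448 and 74.9 on the unmated ones. The gene nanos encodes a translational repressor of the rear end of the embryo, and its probe set had 36.6, 108 and 103 on the mated arrays, against 627, 511 and 29.9 on the unmated ones. In swa and nanos unmated array 3 was the lowest array, and in exu it lay within the mated values.

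Others act on germ cells or on the stored RNAs. The gene pgc silences transcription in the future germ cells, and it had an intensity of 48.6, 47.5 and 63.5 on the mated arrays, against 242, 276 and 43.5 on the unmated ones. The gene smg encodes an RNA-binding protein that clears maternal RNAs, with 47.4, 48.5 and 60 on the mated arrays, against 215, 229 and 28.9 on the unmated ones. The gene wisp encodes a poly(A) polymerase of the oocyte, with 37.1, 44.6 and 22.7 on the mated arrays, against 152, 161 and 22.2 on the unmated ones. All 3 had their lowest value on unmated array 3, by a narrow margin in wisp. Jabba, which tethers histones to lipid droplets in the embryo, had 209, 205 and 208 on the mated arrays, against 1123, 1229 and 281 on the unmated ones, and here unmated array 3 was the highest of the 4 low arrays.

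The remaining genes of this kind work in nuclear import and division. CycB3, the cyclin B3 gene, had an intensity of 76.2, 109 and 98.2 on the mated arrays, against 538, 639 and 48.2 on the unmated ones. The gene mtrm, which encodes an inhibitor of Polo kinase in the oocyte, had 7.1, 50 and 77.2 on the mated arrays, against 248, 306 and 38.5 on the unmated ones, the widest spread on the 4 low arrays of the 13. The gene bora, an activator of Aurora A kinase, had 84, 88.3 and 107 on the mated arrays, against 350.3, 369.6 and 61.9 on the unmated ones. CycB3 and bora had unmated array 3 below all mated arrays. Pen, an importin alpha, had 234.5, 207 and 287 on the mated arrays, against 1029, 1206 and 131 on the unmated ones.

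The homeobox gene cad is known both as a maternal RNA of the embryo and as a regulator in the gut. Its probe set had an intensity of 8, 8.7 and 60.9 on mated arrays 1, 2 and 3, against 271, 308 and 6 on unmated arrays 1, 2 and 3. Mated array 3 stood well above the other 3 low arrays, which were all below 14.2.

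Among the probe sets that were not sorted, whe had an intensity of 62.5, 46.7 and 60.6 on mated arrays 1, 2 and 3, against 863, 2556 and 55.8 on unmated arrays 1, 2 and 3, a ratio of 13.8. CG16826 had 21.5, 9.6 and 6.4 on the mated arrays, against 252, 1246 and 10.8 on the unmated ones, and CG10911 had 40.4, 17.4 and 14.4 on the mated arrays, against 509, 415 and 22.3 on the unmated ones. CG12374 had 27.4, 11.4 and 4.5 on the mated arrays, against 196, 497.5 and 6.2 on the unmated ones. In whe, CG16826 and CG12374 unmated array 2 was over 2 times as high as unmated array 1. The cytochrome P450 gene Cyp6a19 had 76.7, 69.4 and 77.1 on the mated arrays, against 454, 358 and 51.4 on the unmated ones. The gene side-V, of the Sidestep family of cell surface proteins, had 31.6, 33 and 26.3 on the mated arrays, against 228.5, 189 and 33 on the unmated ones. CG31871 had 38.4, 35.1 and 31.6 on the mated arrays, against 223, 192 and 40.5 on the unmated ones and CG14545 had 132, 83.8 and 135 on the mated arrays, against 444, 533 and 147.5 on the unmated ones. The probe set of 2 genes had 93.6, 65.5 and 42.9 on the mated arrays, against 1136, 903 and 87.9 on the unmated ones, a ratio of 9.65, and the unlisted probe set had 42.3, 38.9 and 13.9 on the mated arrays, against 204.5, 155 and 51.3 on the unmated ones. In CG31871, CG14545 and the unlisted probe set, unmated array 3 lay above all mated arrays.

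Just inside the ratio of 3 were CG14545 at 3.01, the unlisted probe set at 3.02 and Jon74E at 3.17. Just outside it were tobi, a glucosidase gene, at 2.98, sip2 at 2.98 and the bomanin gene BomS6 at 2.96. Near the level of 150, wisp, the unlisted probe set and BigH1 were just inside, with lower values of 152, 155 and 172.5 on unmated arrays 1 and 2. Just outside were a second unlisted probe set at 145, the centrosome gene spd-2 at 142 and a probe set of 2 genes at 139. A ratio of 3 with a level under 150 was found in 73 probe sets. Thus the border runs through a continuous range of values.

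The chorion genes left out by name had intensities of 25.3, 24.8 and 20.2 on the mated arrays, against 645, 445 and 23.3 on the unmated ones for Cp16, a ratio of 17.6. Cp38 had 65.8, 116 and 38.1 on the mated arrays, against 1260.5, 611 and 101.5 on the unmated ones, and Cp19 had 144, 18.7 and 77.3 on the mated arrays, against 1060.3, 589 and 52.5 on the unmated ones. All 3 were higher on unmated array 1 than on unmated array 2.

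For 5 of the named genes further probe sets offered a measurement that the choice did not use. None of these 6 probe sets met the rule. The second probe set of nanos had an intensity of 157, 24 and 14.8 on the mated arrays, against 174, 185 and 107 on the unmated ones, with mated array 1 close below unmated array 1 and unmated array 3 above the other 2 mated arrays. The second probe set of swa was dim, with 5.6, 4.9 and 8.6 on the mated arrays, against 11.2, 17.3 and 8.5 on the unmated ones. That of cad had 21.7, 9.1 and 18 on the mated arrays, against 20.4, 36 and 15.7 on the unmated ones, with a value on mated array 1 above that on unmated array 1. For CG31871 it had 103, 123 and 73.9 on the mated arrays, against 139.8, 60.8 and 167 on the unmated ones, so unmated array 3 was the highest there. The 2 further probe sets of side-V had 62, 31.9 and 31.9 on the mated arrays, against 38.4, 54.3 and 55.9 on the unmated ones, and 18.3, 15.3 and 43.7 on the mated arrays, against 22.8, 35.9 and 12.7 on the unmated ones. The pattern was therefore seen in 1 probe set only for CG31871, side-V and cad, whereas for nanos and swa the other probe set had unmated arrays 1 and 2 above the other 4 by ratios of 1.11 and 1.3.

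The pair of genes that shares the unnamed probe set had 2 further probe sets, both of a type that can bind several related transcripts. The first had an intensity of 299, 235 and 124 on the mated arrays, against 869.9, 825 and 265 on the unmated ones, a ratio of 2.76. The second had 398, 388 and 226 on the mated arrays, against 1116, 1321 and 311 on the unmated ones, a ratio of 2.81. Both lay just below the ratio of 3, with unmated arrays 1 and 2 above the other 4 arrays.

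The rule fixed that unmated arrays 1 and 2 were both high, but not which of them was higher. Unmated array 2 was the higher in 20 of the 30, and unmated array 1 in 10, or 33.3%, against 48% of all probe sets and 50.8% of those with at least 150 on both. The median log2 ratio of unmated array 1 to unmated array 2 was -0.16 among the 30, against -0.02 over all probe sets and 0.01 over the 4703 probe sets with at least 150 on both. With 1 array each there is no test of this ratio. Among the 13 genes of oocyte, early embryo and cell division it ran from -0.47 in exu to 0.30 in nanos, with an SD of 0.20 over genes. Among the 6 digestion and gut genes it ran from -0.84 in betaTry to 0.27 in Mal-A1, with an SD of 0.39. In the 10 probe sets not sorted the range was from -2.31 in CG16826 to 0.40. A difference of over 2 times between the 2 arrays occurred in 3 of the 30, whe, CG16826 and CG12374. Such a difference was found in 20.9% of all probe sets and in 2.53% of those with at least 150 on both arrays. The chorion genes lay on the other side, at 0.53 for Cp16, 0.85 for Cp19 and 1.04 for Cp38.

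**Figure D2:**
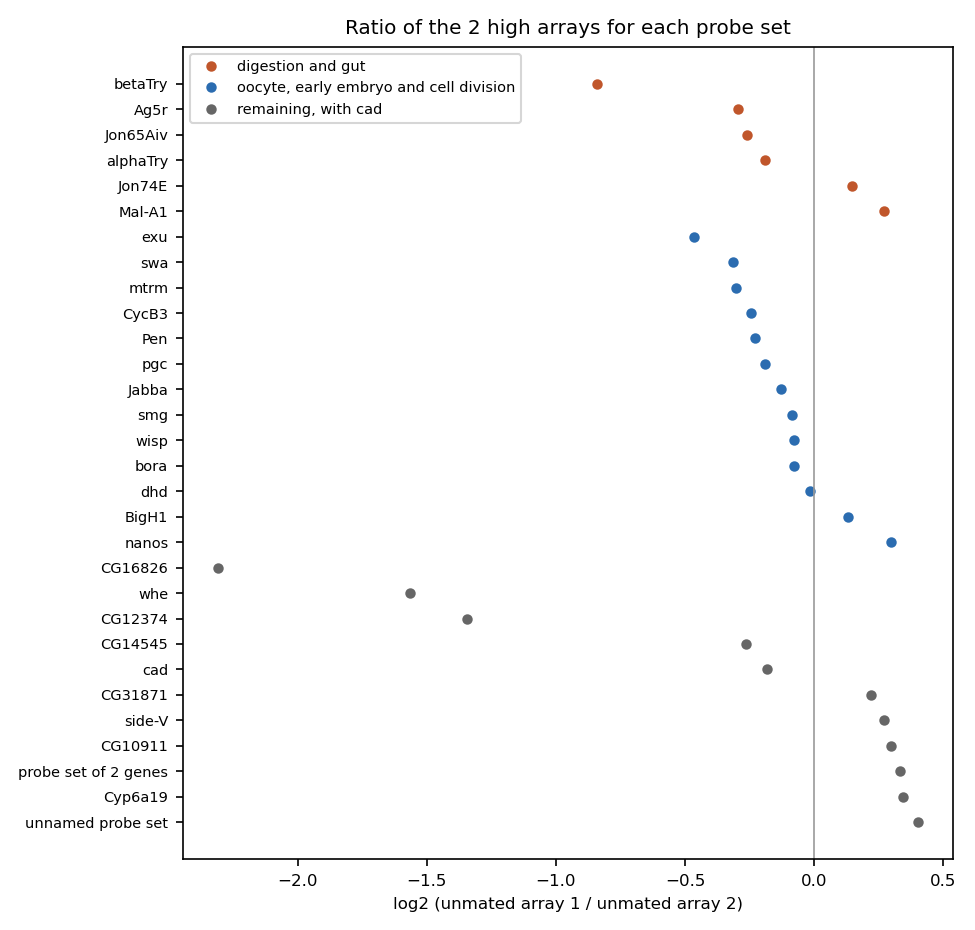
Log2 ratio of unmated array 1 to unmated array 2 for each of the 30 probe sets, 1 point per probe set, coloured by the known role of the gene. The oocyte and embryo genes lie between -0.47 and 0.30, and CG16826, whe and CG12374 lie below -1.

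The comparison that the study was designed for sets mated against unmated oviducts. Because the rule used all 6 arrays, its values for the 30 probe sets are a description. The log2 difference, mated minus unmated over 6 arrays, had a median of -1.88 among the 30, against -0.16 over all probe sets. It ran from -3.77 in CG16826 to -1.11 in bora. At an adjusted p of 0.05 limma called 0 of the 30 and 0% of all probe sets. At an unadjusted p of 0.05, 14 of the 30 were lower, against 5.56% of all probe sets, and nothing is read from that count. All 3 mated values lay below all 3 unmated values in 4 of the 30, against 8.59% of all probe sets, and the reverse was found in 0 of the 30, against 2.33%. These 4 were Jabba, CG31871, CG14545 and the unlisted probe set. In the other 26 the value on unmated array 3 fell among or below the mated values. The spread among unmated oviducts was wide, as in alphaTry, at 18.8 ± 9.31 in mated and 464 ± 398 in unmated oviducts (SD, n = 3 each).

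Without the 2 arrays that chose the probe sets, the 3 mated arrays could be set against unmated array 3 alone. The rule only capped these 4 arrays. The log2 difference had a median of 0.14 among the 30, against 0.00 over all probe sets, and 17 of the 30 were higher in mated oviducts, against 50.3% of all probe sets and 49.7% of those with at least 150 on unmated arrays 1 and 2. No probe set passed: limma called 0 of the 30 at an adjusted p of 0.05, where 0% of all probe sets were called. At an unadjusted p of 0.05 it called 0 of the 30. Of all probe sets it then called 2.75% as higher and 1.66% as lower in the mated group, and of those with at least 150 on unmated arrays 1 and 2 it called 0.617% and 0.106%. The median fell to -0.035 without mated replicate 1 and to -0.17 over the 11 of the 30 that were brighter than the median probe set. In this fit the lone unmated array is assumed to vary like the mated ones.

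Unmated array 3 lay below all 3 mated arrays in 12 of the 30, against 23% of all probe sets and 21.1% of those with at least 150 on unmated arrays 1 and 2. It lay above all 3 in 4 of the 30, against 22.4% and 23.2%. Unmated array 3 was the lowest of all arrays in 9 of the 13 genes of oocyte, early embryo and cell division, in 1 of the 6 digestion and gut genes, in cad and in 1 of the 10 probe sets not sorted, against 19.3% of all probe sets. The sorting was made after the values were seen, and the difference between the kinds was not tested. The log2 difference, mated minus unmated array 3, was 1.31 ± 0.78 in nanos, 1.17 ± 0.55 in swa, 0.95 ± 0.51 in CycB3, 0.88 ± 0.51 in Pen and 0.84 ± 0.50 in smg (SE from limma). These are the largest of the 13. It was above 0 in 10 of the 13, against 50.3% of all probe sets, and below 0 in Jabba, mtrm and exu, at -0.44, -0.35 and -0.30. It was 1.23 ± 0.78 in alphaTry and -0.26 ± 0.54 in betaTry. The lowest unadjusted p of the 30 was 0.0842, in swa (limma, adjusted p 0.9999). The median was 0.58 among the 13 oocyte and embryo genes and -0.21 among the 6 digestion and gut genes. The number of the 13 with unmated array 3 below all mated arrays was 9 as deposited, 8 with quantile-normalized values and 9 with values scaled by the median or by cyclic loess.

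**Figure D3:**
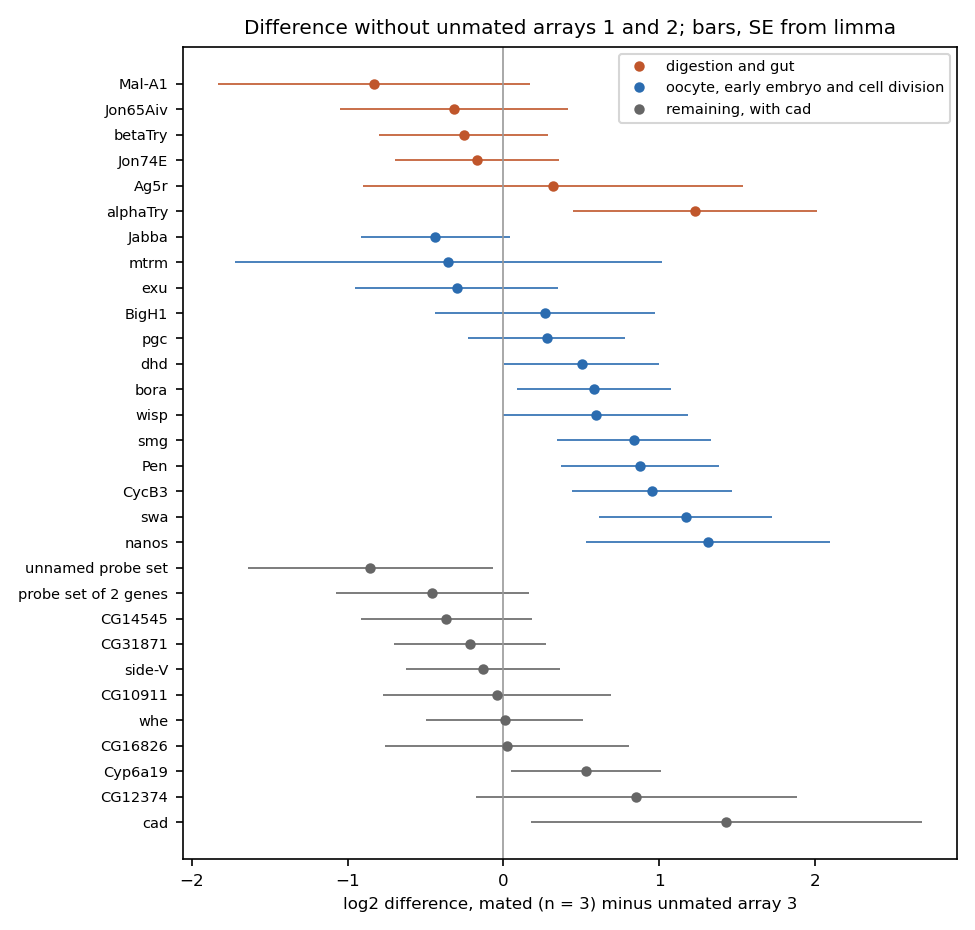
Log2 difference of mated oviducts (n = 3) minus unmated array 3 for each of the 30 probe sets, with SE bars from limma, coloured by the known role of the gene. The values run from -0.85 in the unlisted probe set to 1.43 in cad, and none passed the test.

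Marker lists for 18 tissues and processes place the 30 among related genes. The lists were drawn up with results of these arrays known, and each gene was represented by its brightest probe set. Of the 28 named genes, 13 stood on a list and 15 on none. The germline list had 6 of the 28 among its 42 measured genes: swa, nanos, dhd, pgc, smg and exu. The list of midgut digestive proteases had 4 among 30 measured genes, alphaTry, betaTry, Jon65Aiv and Jon74E. The lists of sugar, lipid and bacterial digestion, of midgut lining and identity, and of DNA replication and cell cycle had 1 each, Mal-A1, cad and CycB3. Those shares were 14.3%, 13.3%, 3.33%, 5.26% and 4%, against 0.258% of all 10844 genes. The other 13 lists, among them follicle cells, fat body, spermatheca, male accessory gland, testis, nervous system, muscle and haemocytes, had 0. The follicle cell list was drawn up without the genes left out by name, so Cp16, Cp38 and Cp19, eggshell genes of the follicle cells that met the values, are not counted in it.

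In the germline list, the 6 chosen genes had unmated arrays 1 and 2 above the other 4 arrays by the rule. Of the other 36 measured genes 22 had this split of arrays, or 61.1%, against 23.5% of all genes outside the 30. The gene vas, a germline RNA helicase, had an intensity of 22.8, 19.7 and 26.8 on the mated arrays, against 95.4, 128 and 24 on the unmated ones, and aub, a Piwi protein, had 20.2, 15.1 and 8.8 on the mated arrays, against 71.7, 93.4 and 11.6 on the unmated ones; both reached the ratio of 3 but not the level of 150. The gene osk, which founds the germ plasm, had 113, 78.4 and 130 on the mated arrays, against 271, 359.5 and 95.5 on the unmated ones, a pattern in the same direction with a smaller ratio. The gap junction gene zpg of the germline had 164.5, 139 and 139 on the mated arrays, against 372, 443 and 135 on the unmated ones. In grk, which encodes the signal of the oocyte to the follicle cells, mated array 2 was higher than unmated array 2, at 247, 434 and 376 on the mated arrays, against 474.5, 389 and 283 on the unmated ones. Other germline genes did not share the pattern at all: tud had 1030.1, 1574 and 1072 on the mated arrays, against 1259, 1016 and 1937 on the unmated ones, and stau had 202, 272.5 and 241 on the mated arrays, against 268, 186 and 260.3 on the unmated ones. In the comparison over 6 arrays 11 of the 42, chosen genes included, were lower in mated oviducts and 0 higher at an unadjusted p of 0.05 in limma. That is 26.2% lower, against 5.25% lower and 0.987% higher of all genes, and 0 passed the adjusted threshold in limma. Among the 11 was exu, whose values on the same arrays the rule had used. The list was also drawn up with results of these arrays known, so nothing is read from that count. Against unmated array 3 alone 20 of the 42 were higher in mated oviducts, or 47.6%, against 50.5% of all genes, with a median log2 difference of -0.03. Unmated array 3 was below all mated arrays in 13, or 31%, against 22.8% of all genes.

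In the digestive protease list, 15 of the 26 measured genes outside the 30 probe sets had the same split of arrays, or 57.7%. The Jonah protease gene Jon99Fii had an intensity of 271, 202.5 and 172 on the mated arrays, against 642, 683 and 246 on the unmated ones. Its probe set is of the type that can bind several related transcripts. The protease gene yip7 had 180.5, 78.9 and 33.3 on the mated arrays, against 543, 414 and 118 on the unmated ones, and the trypsin gene epsilonTry had 373, 137 and 175 on the mated arrays, against 565, 675 and 232 on the unmated ones. Unmated arrays 1 and 2 did not always move together here. Jon25Biii had 75, 69.5 and 10.3 on the mated arrays, against 363, 57.3 and 42.7 on the unmated ones, and Jon99Fi had 27.7, 59.8 and 26.9 on the mated arrays, against 254, 51.1 and 42.3 on the unmated ones, so in both only unmated array 1 stood high. The lysosomal protease gene cathD, which many tissues use, had 6798, 7952 and 6427 on the mated arrays, against 6364, 5588 and 7810.2 on the unmated ones, with no such split. Over 6 arrays 6 of the 30 listed genes, chosen genes included, or 20%, were lower in mated oviducts and 0 higher at an unadjusted p of 0.05. Among these 6 were betaTry, Jon65Aiv and Jon74E, whose values on the same arrays the rule had used, so nothing is read from that count. Of all genes 5.25% were lower and 0.987% higher, and 0 of the 30 listed genes passed the adjusted threshold in limma. Against unmated array 3 alone 14 were higher, or 46.7%, against 50.5% of all genes, and 0 reached an unadjusted p of 0.05.

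In the list of sugar, lipid and bacterial digestion, 15 of the 29 measured genes outside the 30 probe sets had the split. Among the 15 were LysB, LysC, LysD and LysE, whose probe sets are of the type that can bind several related transcripts. They may not be separate measurements. The lysozyme gene LysD had an intensity of 43.1, 37.9 and 33.9 on the mated arrays, against 102, 770.1 and 40.4 on the unmated ones, so it was high on unmated array 2 above all, and mag, a lipase gene of the gut, had 25, 23.5 and 4.7 on the mated arrays, against 223, 53.2 and 28.6 on the unmated ones, high on unmated array 1 above all. Outside the 30, the share of genes with the split was 38.9% of 18 for midgut lining and identity, 70.8% of 24 for DNA replication and cell cycle, 55.6% of 9 for enteroendocrine peptides, 31.6% of 19 for Malpighian tubule, and 50% of 14 for induced immune peptides. It was 29.4% of 17 for follicle cells and eggshell, the list drawn up without the genes left out by name. It was 33.3% of 6 for eye, 25% of 12 for haemocyte, 23.8% of 21 for male accessory gland and ejaculatory duct, 20% of 15 for nervous system and 18.2% of 22 for testis and sperm. It was 18.2% of 11 for fat body, 0% of 5 for spermatheca and parovaria, 12.5% of 8 for oviduct epithelium and 6.67% of 15 for skeletal muscle. Lists of under 10 genes give coarse shares. The enteroendocrine and male accessory gland lists had 1 gene each with at least 150 on both unmated arrays 1 and 2. Their shares therefore rest mostly on low intensities.

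The level of each list on each array was taken as the median log2 deviation of its genes, the chosen ones included, from their own mean over the 6 arrays. For the germline list it was -0.43, -0.51 and -0.45 on the mated arrays, against 1.05, 1.13 and -0.49 on the unmated arrays. For digestive proteases it was -0.13, -0.14 and -0.94 on the mated arrays, against 1.03, 0.87 and -0.41 on the unmated arrays. The rise was not limited to these lists: induced immune peptides stood at -0.27, -0.42 and -0.75 on the mated arrays, against 0.69, 0.77 and -0.50 on the unmated arrays. For oviduct epithelium the level was 0.38, -0.20 and 0.01 on the mated arrays, against -0.19, -0.16 and 0.01 on the unmated arrays. Over all genes it was -0.06, -0.01 and -0.12 on the mated arrays, against 0.18, 0.21 and -0.10 on the unmated arrays. Mated array 3 was thus the lowest for digestive proteases, whereas the 4 low arrays were nearly level for the germline list.

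**Figure D4:**
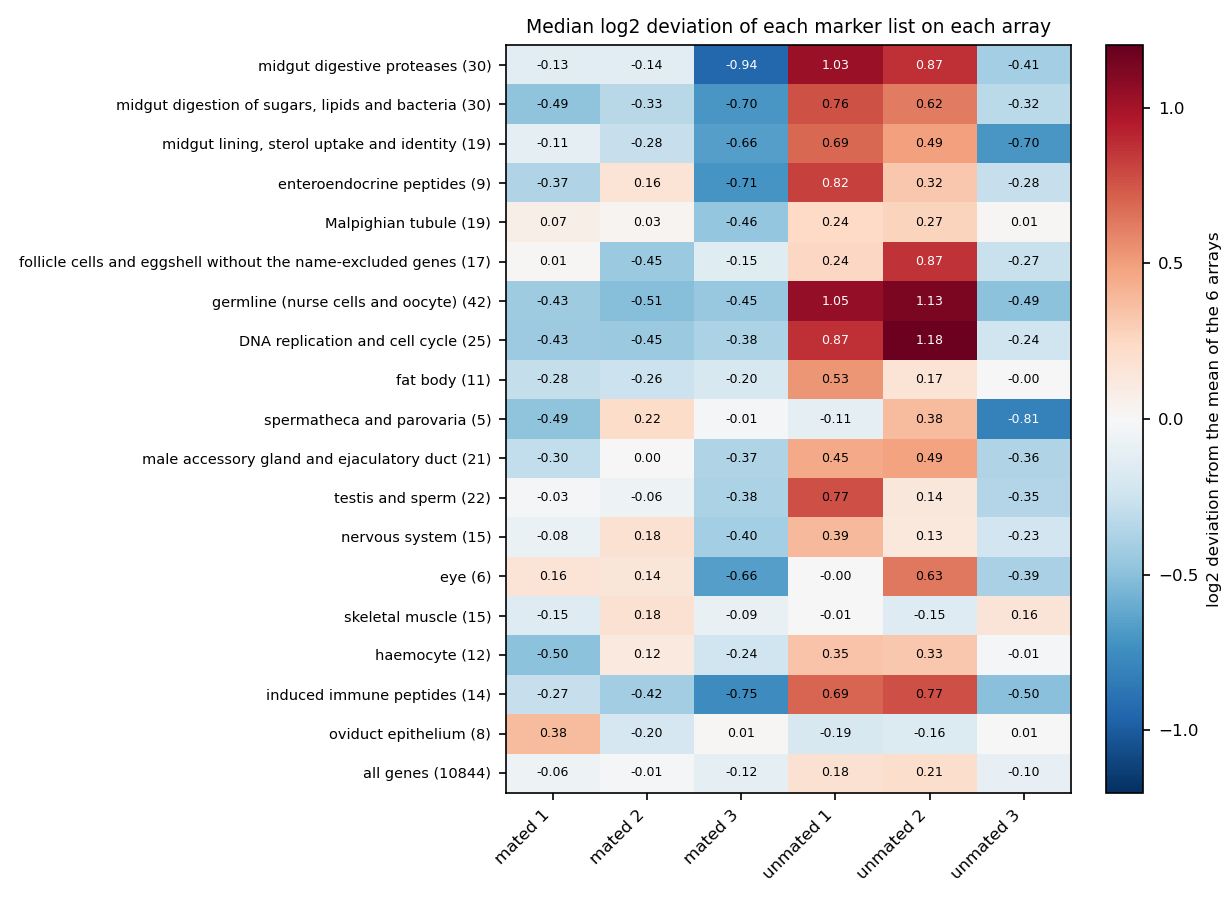
Median log2 deviation of each marker list from the mean of the 6 arrays, on each mated and unmated array, with the number of measured genes in brackets and the value in each cell. The germline, replication and digestion lists, chosen genes included, are high on unmated arrays 1 and 2. Other lists are raised there too, among them induced immune peptides at 0.69 and 0.77, enteroendocrine peptides at 0.82 and 0.32 and male accessory gland at 0.45 and 0.49. Only 1 of 9 enteroendocrine and 1 of 21 male accessory gland genes reached 150 on both arrays, so these 2 lists rest mostly on low intensities. The oviduct epithelium list is at -0.19 and -0.16 there, and skeletal muscle at -0.01 and -0.15.

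Along the chromosomes the 28 named genes were scattered. In the order of the measured protein-coding genes, only 1 pair lay within 5 genes of each other, alphaTry and betaTry, at 2 steps.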

How the data were processed

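The authors deposited 1 linear intensity for each probe set on each array. The authors' processing is named only as RMA, with no version, per the submitters' processing notes; the values are not on the log2 scale that RMA usually gives, and which summary was deposited remains unknown. The 44 control probe sets were left out, which left 13966. In the platform annotation 12443 of these have 1 gene, 327 have several and 1196 are not listed. Symbols were updated by Entrez identifier against RefSeq genes of Release 6 plus ISO1 MT, used for names and gene order only.

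Mated and unmated arrays were compared on log2 intensity by the moderated two-sided test of limma 3.58.1, run in R 4.3.3, with Benjamini-Hochberg adjustment over all 13966 probe sets and a threshold of 0.05. The fit was repeated without unmated arrays 1 and 2. The script was tested on simulated data. The precision is limited by the 6 arrays.

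The probe sets, gene lists and tests were chosen with earlier results of these data known. Named genes were the 20 largest ratios, up to 5 per list or family, those nearest the thresholds and up to 5 per direction with the smallest p without unmated arrays 1 and 2, which gave 26 of the 28 named genes. Outside this rule, bora and mtrm were named so that every gene is accounted for, and genes outside the 30 were named after their values were seen, to show a list or a threshold. Alternatives were other scalings, an offset of 32, other folds and levels, a filter on dim probe sets, trend and robust settings, the replicate number as a block and each array left out. Promoter motifs were not analysed here.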

Additional observations from a re-analysis of the deposited data

How the results depend on the processing

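The number of probe sets that met the rule depended on scaling and thresholds. It was 30 as deposited, 24 after quantile normalization (23 of the 30 and 1 other), 15 after median centring and 15 after cyclic loess, all from the 30, with 11 shared by both. It was 85 with a ratio of 2, 10 with a ratio of 5, 54 with a level of 75 and 19 with a level of 300. With 1 array left out it ran from 34 to 79, the highest values being 63 without unmated replicate 1 and 79 without unmated replicate 2. Of the 13 oocyte and embryo genes 1 kept a ratio of 5, and of the 6 digestion and gut genes 3 did. The median log2 difference over 6 arrays stayed below 0 in every alternative. It ran from -2.78 without unmated replicate 3 to -1.44 without unmated replicate 2 with 1 array left out. The choice of the 30 by high values on unmated arrays 1 and 2 leads to this sign, so nothing is read from it. The count at an unadjusted p of 0.05 in limma, in either direction, was 14 as deposited, against 921 of all 13966 probe sets. It was 9 among the 18 probe sets above the median level, against 324 of all such probe sets. With 1 array left out it ran from 0 to 30. It was 30 without unmated replicate 3, against 2020 of all probe sets, and 0 without unmated replicate 1 or 2, against 560 and 652. Without mated replicates 1, 2 and 3 it was 9, 4 and 3, against 879, 964 and 595. The rule had set unmated arrays 1 and 2 above all mated arrays, so nothing is read from these counts. With the replicate number as a block (replicate block) the count was 17, against 945 of all probe sets, the median stayed at -1.88 and 0 passed. The numbers did not pair the arrays: the deviations of equal numbers correlated across probe sets at -0.18, 0.03 and -0.09. Against unmated array 3 alone the median of 0.14 turned to -0.17 among the probe sets above the median level and to -0.035 without mated replicate 1, and lay between -0.035 and 0.25 with a mated array left out. The unadjusted count there was 1 with an offset of 32, and 0 to 1 with a mated array left out. Single genes also turned sign here, all of them within 1 SE of 0 in the fit of all 4 arrays. With quantile, median and cyclic loess scaling, whe was at -0.058, -0.035 and -0.069. With quantile, median and cyclic loess scaling, CG16826 was at -0.011, -0.021 and -0.0056. CG10911 was at 0.017 with the offset. With a mated array left out, whe ran from -0.069 to 0.14, BigH1 ran from -0.0015 to 0.69, CG16826 ran from -0.46 to 0.41, Ag5r ran from -0.60 to 0.85, mtrm ran from -1.03 to 0.69, CG10911 ran from -0.49 to 0.25, exu ran from -0.6 to 0.029, Jon65Aiv ran from -0.74 to 0.045 and Jon74E ran from -0.27 to 0.013. In this comparison 21 of the 30 kept their sign in all alternatives. The planned search for promoter motifs was not run. The causes were not tested.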

Other observations

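Genes just beyond the thresholds were in part of the same kinds and in part of others. With a ratio of 2 in place of 3, 55 further probe sets of the 13966 joined. Some stood on the digestive protease list, such as Bace, Jon65Aiii, Jon99Fii and yip7, or on the germline list, such as osk and zpg. Also among the 55 were the induced immune peptide genes BomS6, BomT2, IM33 and BomS2. Of the 14 measured genes of the immune peptide list, 7 had unmated arrays 1 and 2 above the other 4, against 23.7% of all genes. DptB, which did not, had 512, 1466 and 252 on the mated arrays, against 231, 253 and 222 on the unmated ones. PGRP-SB1, also without the split, had 311, 55.4 and 209 on the mated arrays, against 39.3, 42.4 and 163 on the unmated ones. IM33 had an intensity of 561, 409 and 299.9 on the mated arrays, against 1552, 1515.5 and 388 on the unmated ones, and BomS2 had 33, 62 and 38.4 on the mated arrays, against 162, 187 and 53.9 on the unmated ones. The bomanin gene BomT2 had 70.4, 67.1 and 62.5 on the mated arrays, against 244, 200 and 54.2 on the unmated ones. Unmated array 3 lay among the mated values in IM33 and BomS2 and below them in BomT2. Also joined were Pxt, a peroxidase that follicle cells need, with 158, 173 and 143 on the mated arrays, against 495.5, 723 and 123 on the unmated ones, and the small heat shock genes Hsp26 and Hsp27. Hsp26 had an intensity of 144, 187 and 119 on the mated arrays, against 672, 723 and 255 on the unmated ones, so unmated array 3 lay above all mated arrays. Hsp27 had 90.7, 82.9 and 105 on the mated arrays, against 269.9, 390.1 and 102 on the unmated ones. The ribosomal protein gene RpS5b, a paralogue used in the ovary, had 1031, 723 and 875 on the mated arrays, against 2096.5, 3240 and 753 on the unmated ones.

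The 73 probe sets with a ratio of 3 but a level under 150 were of many kinds, and some were genes of division. In the list of DNA replication and cell cycle, 18 of 25 measured genes had unmated arrays 1 and 2 above the other 4. That is 72%, against 23.7% of all genes, and it includes CycB3, which the rule chose. Orc4 went the other way, with 43.3, 82.2 and 63.3 on the mated arrays, against 15.3, 31.7 and 33.1 on the unmated ones. The microtubule-bundling gene feo had an intensity of 12.6, 10.7 and 11.9 on the mated arrays, against 169, 104 and 14.7 on the unmated ones. The gene Cks30A, whose product binds cyclin-dependent kinases, had 8.1, 23.3 and 23.8 on the mated arrays, against 99.1, 133.5 and 2.6 on the unmated ones. CycE had 1.3, 14.5 and 10.2 on the mated arrays, against 56.5, 57.7 and 1.5 on the unmated ones. The low values of these 3 genes mostly lie below 14.2, so the sizes are not exact.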
